A study of Mus musculus with 5 samples.

Results

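Glutamate receptors and GABA-A receptors are encoded by 45 protein-coding genes in the GENCODE vM1 annotation of the mm9 mouse genome, among 22380 in all. They were taken by their symbols, and the GABA-B receptor genes are not included. The 45 comprise 4 AMPA, 5 kainate, 7 NMDA and 2 delta receptor genes, 8 metabotropic glutamate receptor genes and 19 GABA-A subunit genes. Acetylation of histone H3 at lysine 9 (H3K9ac), a mark of active promoters, was profiled by ChIP-seq in STHdh Q111 cells. These are conditionally immortalized striatal progenitors of C57BL/6 mice that carry mutant huntingtin (STHdhQ111/Q111), and all samples come from this line. Every sample was kept in serum-free medium for 24 h, and 2 samples received 4 mM 4-deoxypyridoxine (DOP), an inhibitor of sphingosine-1-phosphate lyase, while 2 received vehicle and are called untreated here. A single IgG sample of untreated cells was not analysed here.

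The authors deposited 1 peak list per condition, with 34286 DOP-treated and 33355 untreated peaks, so that there is no value for a single replicate and no replicate error. Each peak is a called position with an interval of 200 bp and a score of the authors' caller. What this score counts is not stated, and it serves here only to rank peaks, as a percentile within their own list. Each receptor gene was given all peaks centred at most 10 kb from one of its annotated transcript starts. No test between the conditions is possible with these lists, and all differences are differences between 2 lists. Depth per sample is unknown.

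Glutamate is the main excitatory transmitter of the brain, and GABA is the main inhibitory one. AMPA, kainate and NMDA receptors are tetrameric cation channels opened by glutamate, whereas metabotropic glutamate receptors signal through G proteins. GABA-A receptors are pentameric chloride channels, built in most neurons from alpha, beta and gamma subunits. Medium spiny neurons of the mature striatum are GABAergic and receive glutamatergic input from the cortex, so both receptor classes are central to their function.

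In the untreated and the DOP list alike, most receptor genes lay far from any H3K9ac peak. Only 8 of the 45 genes had a peak within 10 kb of a start in either list, which is 17.8% (95% Wilson confidence interval 9.29% to 31.3%, counting error only), whereas 59.3% of all protein-coding genes had one. The 8 genes were the kainate receptor genes Grik4 and Grik5, the NMDA receptor genes Grin2c, Grin2d and Grin3b, the metabotropic receptor genes Grm6 and Grm8, and Gabre, which encodes the epsilon subunit of the GABA-A receptor. In the DOP list 8 of the 45 genes had a peak (17.8%), against 57.7% of all genes. In the untreated list 5 of the 45 genes had one, or 11.1% (4.84% to 23.5%), against 56.9% of all genes.

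**Figure D1:**
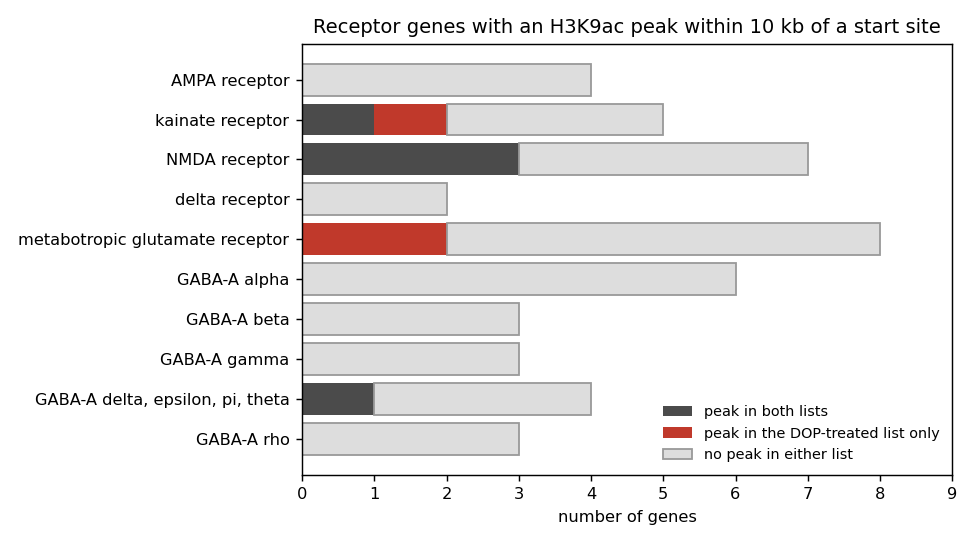
Number of genes in each receptor family (horizontal axis) with a peak in the 10 kb window in both lists, in the DOP list only, or in neither. No gene had a peak in the untreated list only, and no AMPA, alpha, beta, gamma or rho gene had any peak.

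By family, none of the 4 AMPA receptor genes (Gria1 to Gria4), which carry fast excitatory transmission, had a peak in either list. Of the 7 NMDA receptor genes 3 had a peak in each list, but not Grin1, which encodes the obligatory subunit, nor Grin2a or Grin2b. Among the 5 kainate receptor genes there were 2 in the DOP list and 1 in the untreated list, and among the 8 metabotropic genes 2 and 0. On the GABA side, 1 of 19 genes had a peak. The alpha, beta and gamma subunit genes, 12 in all, and the 3 rho subunit genes, known from the retina, had 0 peaks in both lists. With families this small the Wilson intervals are wide, and that for 0 of 4 AMPA genes reaches 49.0%. Such an interval treats the genes as independent draws, although each family was counted in full.

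At some of the 8 genes every peak lay nearest to the start of another gene. For each peak the nearest start site of any protein-coding gene was found. In the DOP list 6 of 16 peaks lay nearest to a start of the receptor gene itself, and the other 10 lay nearest to Zfp574, Fdxr, Kdelr1, Wdr18, ORF61 or Zfp879. In the untreated list these numbers were 6 of 18 and 12. Counted in this way, 5 receptor genes (Grik4, Grik5, Grin2d, Grm8 and Gabre) had a peak of their own in the DOP list, while 52.3% of all genes had one. In the untreated list 3 receptor genes (Grik5, Grin2d and Gabre) had one, against 51.4% of all genes. The same 5 and 3 genes had a peak within 1 kb of a start, against 51.4% and 50.8% of all genes. All 6 own peaks of each list lay within 1 kb of the start, and none of the neighbours' peaks did.

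**Figure D2:**
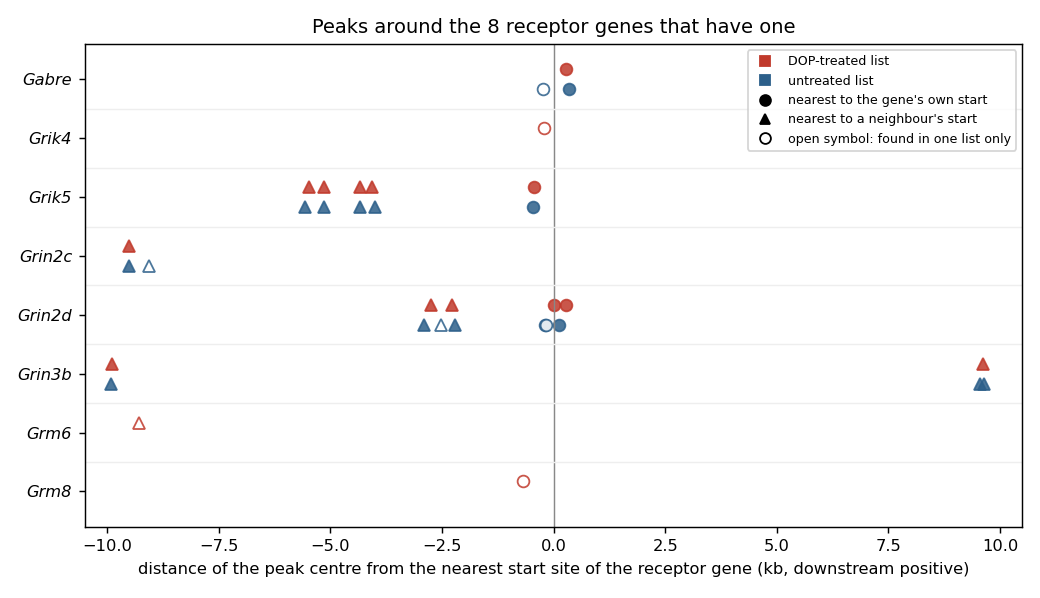
Distance in kb from each peak centre to the nearest start site of the receptor gene (horizontal axis) for the 8 genes with a peak, with DOP-treated and untreated peaks in separate rows. Circles mark peaks nearest to the gene's own start, all within 1 kb of it, and triangles mark peaks nearest to the start of a neighbouring gene. Open symbols are peaks found in 1 list only.

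Grin2d, which encodes the GluN2D subunit of the NMDA receptor and lies on chromosome 7 from 53087253 to 53126298 on the minus strand, had the highest-scoring peaks of its own. In the DOP list a peak was centred on one of its annotated starts, in the 5' UTR, at percentile 83.4, and a second lay 281 bp downstream in a coding exon at percentile 67.4. In the untreated list the highest lay 130 bp downstream of the start at percentile 89.9. The other untreated peaks of its own were at percentile 42.5, 191 bp upstream of a start, and at percentile 25.1, 177 bp upstream of another of its starts. Both lists thus had peaks in the upper part of their ranking at this gene, placed somewhat differently. A further 2 DOP-treated and 3 untreated peaks in the window lay nearest to Kdelr1, which encodes a receptor that returns proteins to the endoplasmic reticulum. These ranked at percentiles 81.6 and 91.0 in the DOP list and between 55.3 and 84.8 in the untreated list. An untreated peak in an intron of Grin2d, 17.9 kb from the nearest start and thus outside the window, ranked at percentile 7.34 and had no partner in the DOP list.

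Grik5, which encodes the GluK5 kainate receptor subunit and lies on chromosome 7 from 25794872 to 25857388 on the minus strand, had 5 peaks in each list. One peak of each list was its own, 431 bp upstream of the start at percentile 37.1 in the DOP list and 461 bp upstream at percentile 29.4 in the untreated list. The remaining 4 of each list lay between 4010 and 5576 bp upstream, nearest to the zinc finger gene Zfp574. The strongest of these ranked at percentile 91.3 and 91.6 and its centres were 3 bp apart. Grik5 was the only one of the 8 genes with equal numbers in both lists.

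Gabre lies on the X chromosome from 69501338 to 69520142 on the minus strand and was the only GABA-A receptor gene with a peak. A shared intronic peak was centred 274 bp downstream of the start in the DOP list, at percentile 25.0, and 342 bp downstream in the untreated list, at percentile 22.3. A second untreated peak lay 242 bp upstream at percentile 6.08, and the nearest DOP-treated centre was 516 bp away. All peaks of this gene were in the lower part of their lists.

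The start sites of Grik4 and Grm8 had a peak in the DOP list only. Grik4 encodes the GluK4 kainate receptor subunit and lies on chromosome 9 from 42326218 to 42752576 on the minus strand. Its peak was centred 225 bp upstream of the start with a score of 152.0, at percentile 17.0, and the nearest untreated peak lay 66405 bp from it. Grm8 encodes the metabotropic glutamate receptor mGluR8, a receptor of presynaptic terminals, and lies on chromosome 6 from 27225121 to 28085178 on the minus strand. Its peak lay 691 bp upstream of the start with a score of 101.0, at percentile 10.2, and the nearest untreated peak was 79469 bp away. Both peaks thus stood alone and ranked low in their list. Grm6, which encodes the mGluR6 receptor of retinal bipolar cells, also had a peak in the DOP list only, but this one lay 9282 bp upstream, in the 5' UTR of Zfp879, with a score of 39.0 at percentile 2.20. The lowest score in the DOP list is 23.

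The peaks of 1 list at the start sites of Grik4, Grm8 and Gabre contain no annotated exon and are shown in full, since they carry the differences between the lists at these genes. They were read from the mm9 assembly on the strand of the gene, 5′ to 3′, and CpG dinucleotides are in capitals. They lie at chr9:42752702-42752901 (Grik4, minus strand, DOP list only), chr6:28085770-28085969 (Grm8, minus strand, DOP list only) and chrX:69520285-69520484 (Gabre, minus strand, untreated list only). They hold 23, 7 and 13 CpG dinucleotides, and their GC content is 73.0%, 57.5% and 71.5%.
Grik4: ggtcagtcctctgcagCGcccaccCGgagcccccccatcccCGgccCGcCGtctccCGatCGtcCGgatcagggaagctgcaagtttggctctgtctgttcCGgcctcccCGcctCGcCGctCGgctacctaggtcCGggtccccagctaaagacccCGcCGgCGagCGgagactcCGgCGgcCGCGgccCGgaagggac
Grm8: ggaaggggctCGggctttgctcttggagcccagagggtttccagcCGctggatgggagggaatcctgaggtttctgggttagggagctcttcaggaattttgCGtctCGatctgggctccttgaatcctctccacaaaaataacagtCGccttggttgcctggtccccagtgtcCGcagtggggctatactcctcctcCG
Gabre: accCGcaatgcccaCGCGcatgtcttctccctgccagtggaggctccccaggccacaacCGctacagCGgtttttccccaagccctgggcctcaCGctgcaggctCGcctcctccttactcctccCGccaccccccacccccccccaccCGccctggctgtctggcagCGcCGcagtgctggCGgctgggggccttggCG

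At Grin2c and Grin3b every peak belonged to a neighbour. Grin2c encodes the GluN2C subunit of the NMDA receptor, and its peaks lay between 9069 and 9513 bp upstream, at the start of the ferredoxin reductase gene Fdxr, with 1 in the DOP list at percentile 68.9 and 2 in the untreated list at percentiles 59.0 and 11.7. Grin3b encodes the GluN3B subunit. Around it a peak 9883 bp upstream in the DOP list and 9908 bp upstream in the untreated list lay in an intron of Wdr18, and those downstream lay in a coding exon of ORF61. The ORF61 peak at percentile 97.8 of the DOP list was the highest-ranking peak assigned to any receptor gene, and the untreated list had 2 there, at percentiles 92.8 and 67.4. The genes just inside the window were Grin3b, with its nearest peak 9543 bp from a start, Grm6 at 9282 bp and Grin2c at 9069 bp. Those just outside were Gabrd at 10970 bp, Grin1 at 13128 bp and Grik3 at 13627 bp.

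**Figure D3:**
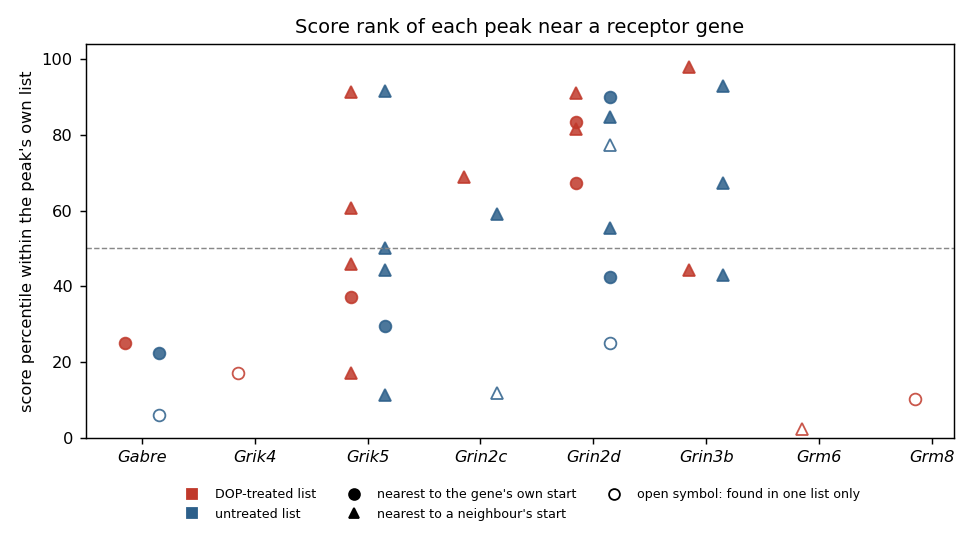
Score percentile of each peak within its own list (vertical axis) for the 8 receptor genes with a peak, by list. The dashed line marks the middle of a list at 50, circles are peaks nearest to the gene's own start, triangles are peaks nearest to a neighbour's start, and open symbols are peaks found in 1 list only. Grin2d is the only gene with its own peaks above the line.

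Ranked by score, the receptor genes' own peaks lay mostly below the middle of their lists. Their median percentile was 31.0 in the DOP list and 27.3 in the untreated list, with 6 peaks each, and the neighbours' peaks had medians of 64.8 and 57.1. Grin2d contributed the own peaks above percentile 50 in both lists. Peaks with no overlap in the other list made up 3 of the 16 DOP-treated peaks (18.8%), near the 20% of all DOP-treated peaks, and 4 of the 18 untreated peaks (22.2%), against 16.7% of all untreated peaks.

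Compared gene by gene, 3 receptor genes (Grik4, Grm6 and Grm8) had peaks in the DOP list only, against 2.39% of all genes, and 0 had peaks in the untreated list only, against 1.62%. More peaks in the DOP list were found at the same 3 genes, against 19.3% of all genes. Fewer were found at 4 genes (Gabre, Grin2c, Grin2d and Grin3b), against 16.9%. The receptor genes with more and with fewer peaks were thus about equal in number, and the scores of the DOP-only peaks were 152.0, 101.0 and 39.0, all below the list median of 419. At Grm6, Grin2c and Grin3b the counts rest on peaks nearest to a neighbour's start. By peaks nearest to the gene's own start, 2 receptor genes had more peaks in the DOP list and 2 had fewer. Whether acetylation changed at these genes could not be tested.

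For the other 37 genes the distance to a peak was measured. Their nearest peak in either list lay between 11.0 and 1251 kb from a start, with a median of 261 kb, and it was over 100 kb away for 23 genes. For the 9095 protein-coding genes without a peak in the window on chromosomes that have peaks, the median was 85.8 kb. The 19 such glutamate receptor genes had a median of 198 kb and the 18 GABA-A receptor genes one of 419 kb. Among the AMPA receptor genes the nearest peak lay 342 kb from Gria1, 110665 bp from Gria2, 301 kb from Gria3 and 181 kb from Gria4. For Gria2 it was at the start of Glrb, which encodes the beta subunit of the glycine receptor, and had percentiles of 28.5 and 22.1. Grin1 lay 13.1 kb from a strong shared peak at the start of Man1b1, a mannosidase gene, at percentiles 90.7 and 89.0.

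Beyond 10 kb from a start, 3 of the 45 receptor genes held a peak within the gene body, or 6.67%, against 6.00% of all genes. Only genes with sequence beyond that distance can hold such a peak. The receptor genes are longer, with a median of 135 kb against 15.4 kb, and the shares were not matched for length. Among the genes without a peak in the window, 2 of 37 receptor genes (5.41%) and 2.78% of all genes held one. Besides that of Grin2d, there was a DOP-treated peak in an intron of Grik3, 13.6 kb from the start at percentile 16.6. In Gabrr3 an untreated intronic peak lay 24.3 kb from the start at percentile 3.70. The Gabrr3 peak also lay in the 5' UTR of Orai2-ps, 20 bp from its start, and thus nearest to another gene. Each of these gene body peaks was found in 1 list only. The nearest untreated peak to the start of Grik3 was 362 kb away.

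Many GABA-A subunit genes of the mouse sit in clusters, and 2 of these are described here, made by chaining receptor genes within 1 Mb of each other. The cluster of Gabrg1, Gabra2, Gabra4 and Gabrb1 on chromosome 5 spans 1387 kb and held 0 peaks in each list. The nearest peak before it lay 1159 kb away, and the nearest after it 29.1 kb away, at Commd8. The X-chromosomal cluster of Gabre, Gabra3 and Gabrq spans 587 kb and held only the peaks of Gabre, 1 in the DOP list and 2 in the untreated list. Gabrr1 and Gabrr2, a pair on chromosome 4, held none.

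**Figure D4:**
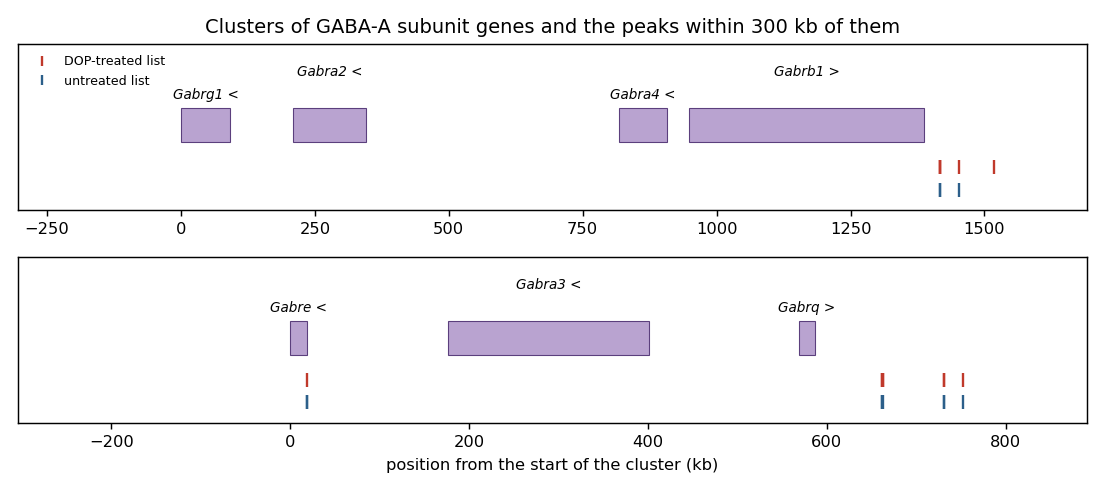
Maps of the clusters of GABA-A subunit genes on chromosome 5 (upper panel) and the X chromosome (lower panel), with position in kb from the start of each cluster on the horizontal axis, genes as boxes with arrows for the strand, and peaks within 300 kb as ticks (upper row DOP-treated, lower row untreated). The only peaks inside these 2 clusters lie at the start of Gabre.

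The promoters of the receptor genes had a CpG content close to that of all genes. Over 250 bases before to 50 after the start of the longest protein-coding transcript, the ratio of observed to expected CpG had a median of 0.56 in the receptor genes and 0.55 in all genes. A ratio of at least 0.6 was found in 21 of 45 receptor genes (46.7%) and in 46.6% of all genes. In this CpG-rich class, however, 87.9% of all genes had a peak within 10 kb, whereas 3 of the 21 receptor genes did (14.3%), namely Grik4, Gabre and Grin2c. The 18 CpG-rich receptor genes without a peak included Grin1, Grin2a, Grin3a, Gria2, Gria4, Grik1, Grik2, Grik3, Grm2, Grm4, Gabra2, Gabra5, Gabrd and Gabrq. In the class below 0.6, 5 of 24 receptor genes (20.8%) and 34.4% of all genes had one. Among all genes the peak thus went with CpG content. The few receptor genes with a peak did not show this order, a difference that was not tested. Their counts include neighbours' peaks, at Grin2c in the CpG-rich class and at Grin3b and Grm6 below it. At Grin2d the ratio was measured at another start than the one on which its DOP-treated peak was centred.

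**Figure D5:**
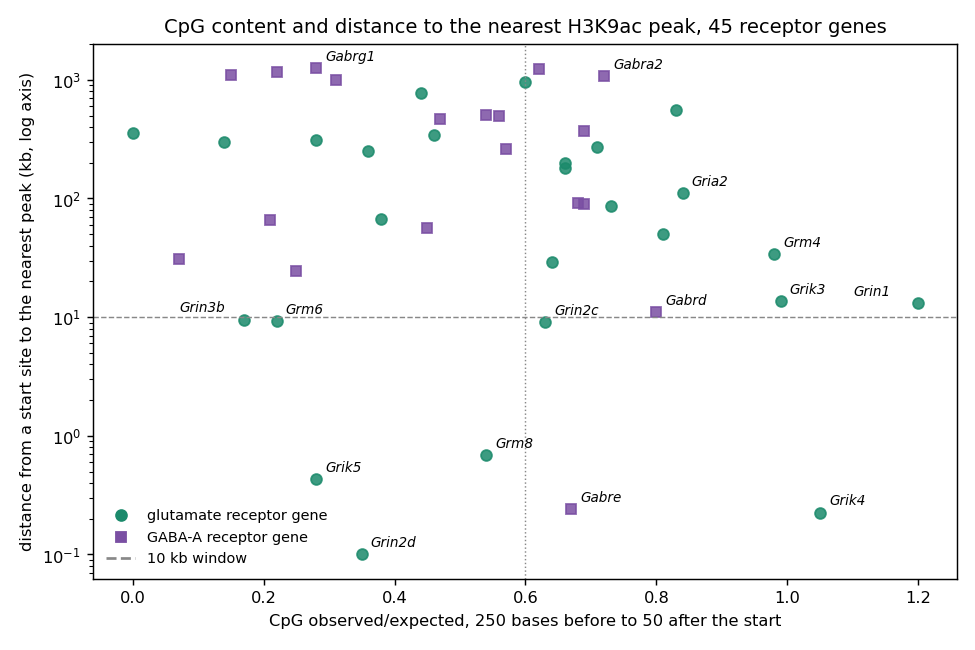
Ratio of observed to expected CpG around the start of the longest transcript (horizontal axis) against the distance from a start site to the nearest peak of either list (vertical log axis, in kb) for the 45 receptor genes. The dotted line marks the ratio of 0.6, and Grin2d, whose distance is 0, is drawn as the lowest point of the log axis. The CpG-rich genes Grin1, Grik3 and Grm4 lie above the dashed line at 10 kb.

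The sequences just upstream of the start are shown for the 3 genes without a peak in the window that had the highest CpG ratios. Of these, Grin1 and Grik3 lay just outside the window, with their nearest peak at 13.1 and 13.6 kb, and Grm4 at 33.8 kb. Each stretch holds the 250 bases before the start of the longest transcript, read from the mm9 assembly on the strand of the gene, 5′ to 3′, with CpG dinucleotides in capitals. They lie at chr2:25174708-25174957 (Grin1, minus strand), chr4:125167694-125167943 (Grik3, plus strand) and chr17:27650287-27650536 (Grm4, minus strand), and hold 27, 42 and 30 CpG dinucleotides.
Grin1: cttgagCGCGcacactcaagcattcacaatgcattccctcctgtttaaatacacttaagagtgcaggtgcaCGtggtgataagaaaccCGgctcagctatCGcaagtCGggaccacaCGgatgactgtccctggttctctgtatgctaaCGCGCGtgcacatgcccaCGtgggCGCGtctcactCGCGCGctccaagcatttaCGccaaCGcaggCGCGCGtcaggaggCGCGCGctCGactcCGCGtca
Grik3: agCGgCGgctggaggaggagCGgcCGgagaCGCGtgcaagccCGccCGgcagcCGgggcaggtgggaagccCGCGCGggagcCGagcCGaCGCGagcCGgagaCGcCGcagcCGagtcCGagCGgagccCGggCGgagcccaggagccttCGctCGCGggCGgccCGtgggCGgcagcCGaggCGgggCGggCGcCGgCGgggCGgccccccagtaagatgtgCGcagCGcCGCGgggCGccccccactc
Grm4: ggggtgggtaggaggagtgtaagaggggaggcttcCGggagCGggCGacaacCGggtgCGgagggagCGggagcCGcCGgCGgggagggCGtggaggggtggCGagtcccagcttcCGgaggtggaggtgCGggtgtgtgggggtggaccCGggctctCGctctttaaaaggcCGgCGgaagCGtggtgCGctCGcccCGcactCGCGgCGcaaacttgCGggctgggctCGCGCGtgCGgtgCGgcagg

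The same stretch is given for the 3 genes whose windows held the highest-ranking peaks, which were peaks of the neighbours ORF61, Zfp574 and Kdelr1. Grin3b had no peak of its own, and the own peaks of Grik5 ranked at percentiles 37.1 and 29.4. Not every gene with its own peak had few CpG dinucleotides, since the ratio was 1.05 at Grik4 and 0.67 at Gabre. They lie at chr10:79433210-79433459 (Grin3b, plus strand), chr7:25857389-25857638 (Grik5, minus strand) and chr7:53122500-53122749 (Grin2d, minus strand), and hold 3, 8 and 5 CpG dinucleotides. The untreated-only peak of Grin2d runs from 53122577 to 53122776 and covers most of the stretch shown.
Grin3b: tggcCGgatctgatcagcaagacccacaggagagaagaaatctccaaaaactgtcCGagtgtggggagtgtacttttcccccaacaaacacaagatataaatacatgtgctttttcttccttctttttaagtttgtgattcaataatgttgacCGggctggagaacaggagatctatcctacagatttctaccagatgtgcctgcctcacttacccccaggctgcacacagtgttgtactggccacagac
Grik5: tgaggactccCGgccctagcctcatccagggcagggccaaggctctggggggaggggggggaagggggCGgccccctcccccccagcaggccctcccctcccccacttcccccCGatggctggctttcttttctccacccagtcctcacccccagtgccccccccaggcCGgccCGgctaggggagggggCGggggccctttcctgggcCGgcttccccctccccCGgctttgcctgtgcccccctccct
Grin2d: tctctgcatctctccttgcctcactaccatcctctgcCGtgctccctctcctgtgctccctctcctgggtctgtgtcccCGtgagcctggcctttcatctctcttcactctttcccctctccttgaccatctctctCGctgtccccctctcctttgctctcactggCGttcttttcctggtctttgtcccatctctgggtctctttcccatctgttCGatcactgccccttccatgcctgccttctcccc

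Short motifs were searched on both strands. The letters TTCAGCACC form one part of the RE1 element, which is bound by REST, a repressor of neuronal genes in other cells. Within 1 kb on either side of the start of the longest transcript they were present in 6 of 45 receptor genes (13.3%) and in 3.03% of all genes. They included Grin1, Grin2a, Grm2, Gabra2 and Gabrd. None of the 6 had a peak within 10 kb, as was the case for 37 of the 45 receptor genes. Over all genes the letters were about as frequent with a peak (2.86%) as without one (3.28%). A match of these letters does not show that the site is bound. The letters TATAAA, between 250 bases before and 50 after the start, were found in 2 receptor genes, Grin3b among them, or 4.44%, against 13.3% of all genes.

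Receptor genes with a peak in the window mostly had a close neighbour, and the others mostly did not. A neighbour's own peaks enter this count. Of the 5 receptor genes with a peak nearest to their own start, 3 had no other start within 10 kb (60.0%). Of the 3 with neighbours' peaks only, 0 lacked one. Of the 37 genes without a peak, 35 had no start of another protein-coding gene within 10 kb, and of the 8 genes with a peak 3 had none. Where another start lay in the window, 5 of 7 receptor genes (71.4%) and 77.6% of all genes had a peak. Where none did, 3 of 38 receptor genes (7.89%) and 49.2% of all genes had one. The receptor genes are long, with a median of 135 kb against 15.4 kb for all genes. Of the 25 receptor genes longer than 100 kb 2 had a peak (8%), namely Grik4 and Grm8, against 63.9% of all genes of this length. Gene length and spacing go together in these families, and their part in the counts was not tested.

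Genes that work with these receptors were examined for comparison, by peaks within 10 kb of a start. Whether these peaks lay nearest to the named gene or to a neighbour was not examined. Of 60 such genes 35 had a peak in either list (58.3%), close to the 59.3% of all genes. Among 19 genes for partner and trafficking proteins 11 had one, including Gabarap (percentiles 99.2 and 99.1 for its highest peaks) and Nsf (90.9 and 84.7), both of which also act in general membrane traffic. Gabbr1, which encodes a subunit of the metabotropic GABA-B receptor, had 2 peaks in each list, with the highest at percentiles 75.0 and 62.1, whereas its partner Gabbr2 had none. Of the AMPA receptor auxiliary genes, Cnih2 had 6 DOP-treated and 5 untreated peaks, with the highest at percentiles 88.4 and 91.5. Cnih3 had 2 and 1 and Cacng7 had 1 and 1, while Cacng2, Cacng3, Cacng4, Cacng5 and Cacng8 had none. Of 20 genes for postsynaptic scaffold and adhesion proteins 13 had a peak, such as Homer3 (99.2 and 98.7) and Dlg4 (72.5 and 63.1), which encodes PSD-95. Of 13 transporter genes 6 and of 8 genes of transmitter metabolism 5 had a peak. Gad1 and Gad2, the GABA-synthesizing enzymes, and the vesicular GABA transporter gene Slc32a1 had none.

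Of these 60 partner genes, 3 (Grip2, Slc1a3 and Slc6a12) had a peak in the DOP list only, against 2.39% of all genes, and 4 (Grid2ip, Dlgap3, Gphn and Slc1a6) in the untreated list only, against 1.62%. Gphn, which encodes the GABA-A receptor scaffold gephyrin, had 2 untreated peaks, the higher at percentile 62.3. The other one-list genes had no peak above percentile 15.0. Potassium channel genes, another large family of neuronal membrane proteins, had a peak in 29 of 96 cases, or 30.2% (21.9% to 40.0%), with 22 in the DOP-treated and 25 in the untreated list. Of these 96 genes, 4 had a peak in the DOP list only, against 2.39% of all genes, and 7 in the untreated list only, against 1.62%. The difference between these groups was not tested.

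The labelled cell type was checked against marker genes in the same way, so that a peak counted here can also be a neighbour's. Of 8 neural progenitor markers 5 had a peak (62.5%), including Vim, Sox9, Notch1 and Hes1, but the defining markers Nes, Sox2 and Pax6 had none. This share is near the 59.3% of all genes and therefore does not mark the cells as progenitors. Of 11 genes of ventral forebrain and striatal lineage 5 had one, among them Dlx1, Foxp1 and Meis2, while Gsx2 (annotated as 2 genes), Bcl11b and Isl1 did not. Among 11 markers of mature neurons only Syp and Ppp1r1b had a peak (18.2%), and Rbfox3, Snap25, Syt1, Drd1a and Drd2 did not. The mesenchymal genes Col1a1, Col1a2, Col3a1 and Fn1 had peaks, 4 of 5 in that list, and astrocyte and oligodendrocyte lists had 2 of 5 each. The part of cell type in the receptor genes' counts was not tested.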

How the data were processed

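H3K9ac ChIP-seq was performed on 2 DOP-treated and 2 untreated samples of STHdh Q111 cells. The paper's methods state alignment to mm9 with Bowtie 2 and peak calling with GPS, while the submitters' processing notes name BWA 0.7.10. The authors deposited 1 list per condition with a score for each peak, whose definition is not given in the sources used here. How the replicates and the IgG sample entered the call is not given either.

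The centre of each peak (column of positions in the lists) was compared with the transcript starts of protein-coding genes of GENCODE vM1 on NCBIM37, which is mm9, and 0 peaks ran past a chromosome's end. An overlap of 1 bp or more between intervals made a peak shared. Percentiles are mid-ranks of the score within a list. Annotation at a peak refers to its centre. Symbols of the partner and marker lists were matched exactly. Of the partner symbols 60 of 61 were found, and of the mature neuron markers 11 of 12, without Map2. Every receptor gene with a peak is described, and genes without a peak are given by family, of which some are not reported here by name. Sequences were read from NCBIM37 and contain no annotated exon. The functions recovered 6 of 6 planted answers on simulated data with 2000 genes. The members, the gene lists and the limits, such as the CpG ratio of 0.6, were chosen with earlier results of these data known. No test was made, since each condition has 1 list. Alternatives were other windows, sides, start sites, assignments, score limits and sharing rules. Python 3.11.15 was used with numpy 2.4.6, scipy 1.17.1 and matplotlib 3.10.9.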

Additional observations from a re-analysis of the deposited data

How the results depend on the processing

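No paired analysis was possible because each condition has 1 list that carries no replicate, which also prevents leaving replicates out. Depth is unknown, so its effect on the calls could not be examined. Of 102 values under 11 alternatives, 68 stayed within 1.5 times the reported count, or within the 95% order-statistic interval for a median percentile, and 34 did not. The 68 include counts that were 0 both as reported and under the alternative. The interval for a median percentile is wide with so few peaks. The DOP median of 53.2 thus counted as staying even at 31.0 within 1 kb and at 82.5 in the top 50%. The DOP list had more receptor genes with a peak than the untreated list in the 8 alternatives that bear on this count, except the top 50% of each list, where both had 4. All alternatives use the same 2 lists, so they do not repeat this difference independently.

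Within 1 kb, and equally with peaks nearest to the gene's own start, 5 genes had a DOP-treated and 3 an untreated peak, 2 genes had fewer DOP-treated peaks, and there were 6 DOP-treated, 6 untreated and 2 untreated-only peaks. Within 5 kb there were 5 and 3 genes, 2 genes with fewer peaks, and 10 and 11 peaks. Within 20 kb there were 27 and 28 peaks, of which 8 and 7 were in 1 list only, and 11 and 7 genes had a peak, with Gabrd, Grin1 and Grik3 added. The top 50% of each list left 4 genes in both lists, 0 genes with a DOP-treated peak only, and 1 gene with more and 1 with fewer peaks. It left 8 peaks in each list and 1 peak in 1 list only on each side. The median percentile there was 82.5 for DOP-treated and 81.1 for untreated peaks. These counts follow from the number of peaks that enter. Requiring a reciprocal overlap of 50% gave 6 peaks particular to the DOP list and 7 to the untreated list. Matching by centres at most 500 bp apart left 2 of the untreated-only peaks, and matching at most 1 kb apart left 0, so those of Gabre, Grin2c and Grin2d each had a DOP-treated peak within 1 kb, while the DOP-only peaks of Grik4, Grm6 and Grm8 stayed at 3. A score of at least 100, chosen after seeing the data, left 7 genes in the DOP-treated and 5 in the untreated list, without Grm6. The only peak of Grm8, with a score of 101.0, was just above this limit.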
